A study of Caenorhabditis elegans with 2 samples.

Results

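The gene described here is unc-3 (WBGene00006743) of Caenorhabditis elegans, 1 of 19973 protein-coding genes of the nuclear genome. It was followed through the peak lists of a ChIP-seq experiment on its own product, the transcription factor UNC-3. All summits were taken that lay between 5000 bp upstream of the annotated 5' end and 2000 bp past the 3' end, a window of 17031 bp on chromosome X from 14768538 to 14785568 (assembly ce11, equal to WBcel235). This window held 1 of the 631 peaks of the main list, the authors' conservative thresholded list for both replicates, and 10 of the 30297 peaks in the ranked list made from both replicates, with 12 of 33914 ranked peaks in replicate 1 and 8 of 34079 in replicate 2. The thresholded lists of single replicates had no summit there, 0 of 353 peaks in replicate 1 and 0 of 384 in replicate 2. Just outside the window the next summits of the ranked list lay 3397 bp beyond its upstream edge (signal 27.8) and 934 bp beyond its downstream edge (signal 18.5).

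The samples are 2 biological replicates of 1 group, called replicate 1 and replicate 2 after the labels. Both are whole late embryos of strain RW12259, staged by bleaching and given an age of 2.5 hours, that carry UNC-3 joined to a TY1, EGFP and 3xFLAG tag made by CRISPR, and chromatin sheared to 200 to 800 bp was precipitated through GFP. According to the labels the insertion was aimed at unc-3, yet they give the tagged allele st12259 on II, whereas the annotation has unc-3 on X. Where the tagged copy sits was not established here. The labels also name unc-3 in the antibody field and GFP in the description, and do not state the event from which the age is counted. The labels name a possible control experiment, which was not analysed here. A peak therefore is enrichment as the authors called it. No comparison between groups could be made, and the values below are descriptions without a test.

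UNC-3 belongs to the COE factors, named after Collier, Olf and EBF, which bind DNA as dimers at a palindromic sequence in which CCC faces GGG. In cholinergic motor neurons of the ventral nerve cord it works as a terminal selector, turning on genes of the mature neuron and keeping them active. Terminal selectors are also known to act on their own genes, and such autoregulation can hold a neuron's identity once it has been chosen. Whole embryos hold many other cell types beside these neurons.

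The strongest peak of the locus lay at the end of the first intron, next to exon 2, and it was also the place of the only relaxed COE site of the window. The peak is shown because the account of the gene turns on it, with the relaxed COE site in capitals, from the plus strand, on which unc-3 is read, at chrX:14776392-14776655 (sequence from RefSeq, WBcel235).
unc-3 intron 1 peak: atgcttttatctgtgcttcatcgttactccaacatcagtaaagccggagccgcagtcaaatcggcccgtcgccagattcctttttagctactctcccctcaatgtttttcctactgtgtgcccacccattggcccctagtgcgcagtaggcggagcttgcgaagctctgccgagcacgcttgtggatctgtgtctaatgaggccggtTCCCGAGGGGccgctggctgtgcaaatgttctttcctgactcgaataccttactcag
The last base of the peak is the last base of intron 1, and exon 2 begins at 14776656. Widths in these lists are mostly fixed, at 264 bp for 99.7% of ranked peaks and 91.6% of main peaks, so only the summit carries positional information. The summit was at 14776524, 2986 bp downstream of the 5' end and 132 bp before exon 2.

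The signal of this peak in the main list was 80.9, where the median of all main peaks was 81.5 and the highest 501. It held rank 323 of 631 by signal. In the ranked list for both replicates it stood at rank 453 of 30297, above 98.5% of all ranked peaks. In the replicates' own ranked lists the overlapping peak had a signal of 44.1 in replicate 1 (rank 454 of 33914) and 34.1 in replicate 2 (rank 642 of 34079), above 98.7% and 98.1% of these lists. The peak was thus near the top of every ranked list and close to the middle of the main list. The highest signal in the ranked list for both replicates was 3288, so the strongest ranked peaks are not in the main list. The scale of the signal is not given, so the list for both replicates is set beside those of single replicates by rank and percentile only. The summits of both replicates were 30 bp apart, at 14776526 in replicate 1 and 14776496 in replicate 2. Replicate 1 had 1.29 times the signal of replicate 2, where the 621 main peaks matched in both replicates had a median ratio of 1.09 with quartiles of 0.894 and 1.31.

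The peak passed the authors' threshold when both replicates were used and in neither replicate alone. The ranked lists give each peak an irreproducible discovery rate (IDR), the estimated share of irreproducible peaks among those ranked at least as high, and thresholded lists end at an IDR of 0.01. At the unc-3 peak the IDR was 0.000833 in the ranked list for both replicates and 0.000695 in the other such list. It was 0.110 within replicate 1 and 0.0237 within replicate 2. Absence from both replicates' own thresholded lists was shared by 212 of 631 main peaks (33.6%). Of the 10 ranked summits of the window, this was the 1 that passed an IDR of 0.01, as did 780 of all 30297 ranked summits (2.57%). The main list, with 631 peaks, does not hold all of these 780. The next lowest IDR at the locus was 0.259 in that ranked list and 0.421 in the other one for both replicates, at different summits. The peak is also 1 of the 622 peaks of the other thresholded list for both replicates, at rank 325.

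**Figure D1:**
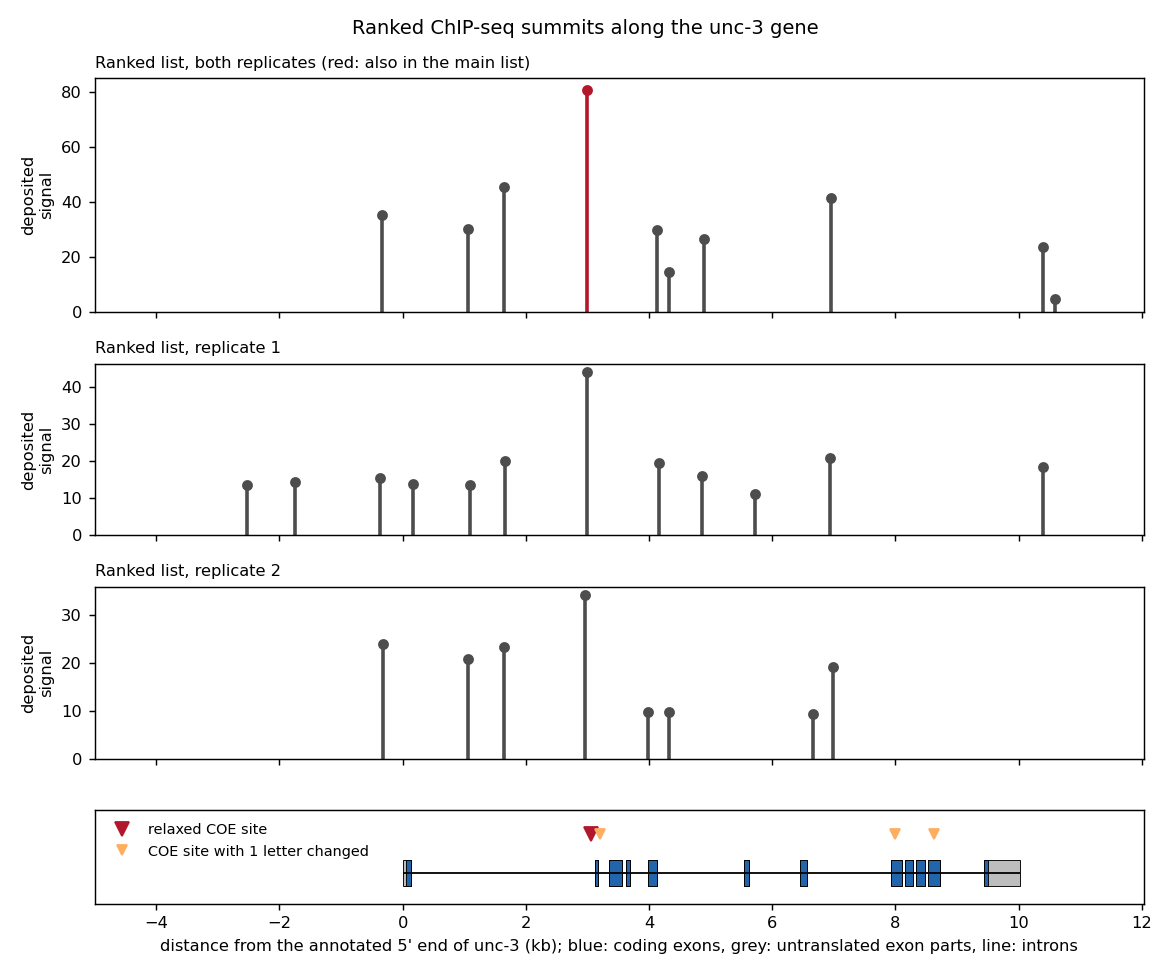
Summits of the 3 ranked lists along the unc-3 window, with the distance from the annotated 5' end in kb on the horizontal axis and the deposited signal on the vertical axes, which differ in scale between panels. The lowest panel draws the 12 exons and the COE sites. The tallest line in each list is the intron 1 peak (80.9, 44.1 and 34.1), beside the relaxed COE site.

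The other 9 ranked summits were followed in order along the gene. The first lay upstream, 342 bp before the 5' end, on the peak chrX:14773064-14773327, and is the one nearest to the annotated beginning of the gene. Its sequence is shown to set the promoter side beside the intron. It held no COE site, and its capitals mark the E-box CAGCTG, a sequence bound by basic helix-loop-helix factors, which lay more than 100 bp from the summit.
unc-3 upstream peak: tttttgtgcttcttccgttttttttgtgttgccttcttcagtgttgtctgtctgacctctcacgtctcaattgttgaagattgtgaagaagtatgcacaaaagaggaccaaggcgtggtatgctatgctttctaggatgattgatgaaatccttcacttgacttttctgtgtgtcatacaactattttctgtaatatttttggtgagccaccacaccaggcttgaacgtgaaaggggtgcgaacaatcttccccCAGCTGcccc
The signal of this peak was 35.3 (rank 5812, above 80.8% of the ranked list) for both replicates, 15.4 in replicate 1 and 23.9 in replicate 2. The replicates ranked it differently: it was above 45.0% of replicate 1's list and above 93.9% of replicate 2's. Its summit lies inside Y16B4A.3, a non-coding RNA gene on the other strand from 14773098 to 14773247, and a second such gene, Y16B4A.4, lies between it and unc-3. The next protein-coding gene in this direction, Y16B4A.2, points away from unc-3, and its 5' end is 1687 bp from that of unc-3. Replicate 1 had 2 more upstream summits, with signals of 13.7 and 14.5 at 2520 and 1747 bp before the 5' end, where neither replicate 2 nor the list for both replicates had any. Both lie inside Y16B4A.2, which runs from 14761924 to 14771851 on the other strand and takes up part of the upstream flank. In the list for both replicates, the outer 4658 bp of the upstream flank held no ranked summit.

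Intron 1, the longest of the gene with 2979 bp, held 3 ranked summits, of which the peak at exon 2 is the last. The first, at 14774601 (1063 bp into the gene), had a signal of 30.4 for both replicates, 13.7 in replicate 1 and 20.8 in replicate 2. The second, at 14775183 (1645 bp), had 45.5 for both replicates, 20.1 in replicate 1 and 23.4 in replicate 2. It was the second strongest peak of the window, above 93.8% of the ranked list. Its IDR was 0.259 there and 0.737 in the other ranked list for both replicates. The peak at exon 2 exceeded it 1.78 times in signal. Within each replicate the strongest peak exceeded the second strongest 2.12 times in replicate 1 and 1.43 times in replicate 2. Replicate 1 had 1 more summit in intron 1, 170 bp into the gene (signal 13.8), with no overlapping peak in replicate 2.

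Introns 5 and 7 held the remaining 4 summits inside the gene. In intron 5 the summits lay at 14777668, 14777869 and 14778438, with signals of 29.8, 14.5 and 26.6. The first pair overlapped 1 and the same peak of replicate 1 (signal 19.6) and each a weak peak of replicate 2 (9.79 and 9.77, above 4.86% and 4.70% of its list), so the 2 summits are not independent. The peak of the third overlaps F42D1.6, a non-coding RNA gene on the other strand from 14778259 to 14778398, and had a counterpart in replicate 1 (15.9) but none in replicate 2. It is also the summit that the other ranked list, with 9 in the window, did not hold. The summit of intron 7, at 14780489, had a signal of 41.6 for both replicates, 20.8 in replicate 1 and 19.2 in replicate 2. It was the third strongest of the window and, beside the intron 1 peak, the one on which the replicates' percentiles were closest among the peaks seen in both (80.5 and 83.6). Each replicate also had a weak summit of its own, 5717 bp into the gene in intron 6 in replicate 1 (11.1) and 6663 bp into it in intron 7 in replicate 2 (9.38).

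The last 2 ranked summits lay past the 3' end, by 366 and 566 bp, with signals of 23.5 and 4.65. Both overlapped 1 peak of replicate 1 (18.4), and neither overlapped a ranked peak of replicate 2. The labels write the tag after the name unc-3. Nearest to the stop codon on either side were summits 2556 bp before it and 889 bp after it. The next protein-coding gene downstream is tatn-1, 7440 bp from the 3' end of unc-3.

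**Figure D2:**
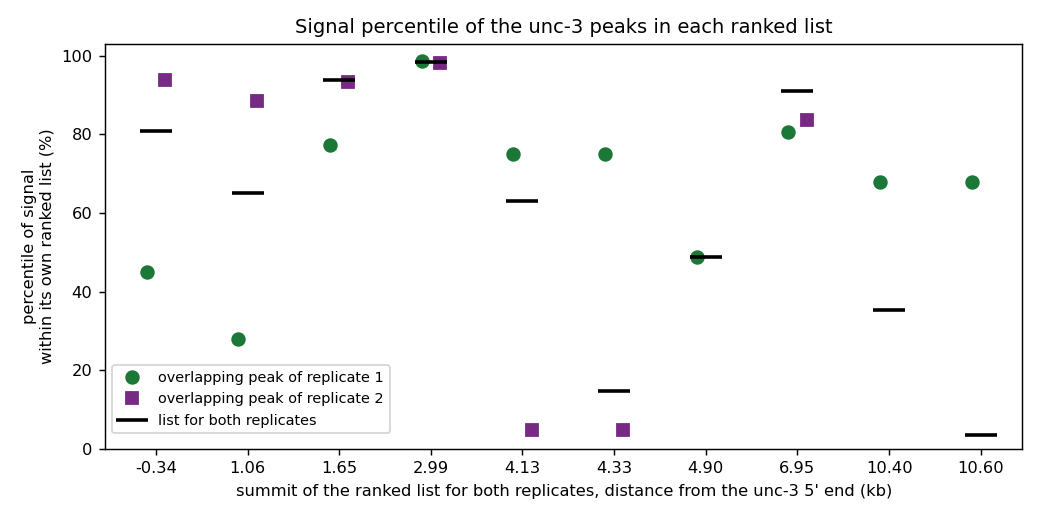
Percentile of signal, within the list it belongs to, of the 10 ranked summits of the window, in order of distance from the 5' end (horizontal axis, kb). Black bars give the ranked list for both replicates, circles the overlapping peak of replicate 1 and squares that of replicate 2. At the intron 1 peak beside exon 2 the 3 values lie between 98.1 and 98.7, while upstream and early in intron 1 the squares lie above the circles.

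All 7 ranked summits inside the gene were in introns. Introns make up 79.5% of the length of unc-3. In replicate 1 all 8 summits inside the gene were in introns, and in replicate 2 6 of 7 were, the other being 3989 bp into the gene in coding exon 5 with a signal of 9.79. Of 19137 ranked summits inside protein-coding genes, 52.3% lay in introns, as did 88.1% of 227 main summits inside protein-coding genes. Of the 10 ranked summits of the window, 7 had an overlapping ranked peak in both replicates, where 45.8% of all ranked summits and 98.4% of main summits had one. The signal was higher in replicate 1 at 4 of these 7, though the scale of the signal in each list is not given. At the intron 7 summit, among the 4, the percentile was higher in replicate 2 (83.6) than in replicate 1 (80.5). The first pair of summits in intron 5 is among the 4, and the replicate 1 peak that they share is counted at each. No summit of the window in any list was closer than 500 bp to genes of tRNA, snoRNA or snRNA, whereas 34.5% of main summits and 2.33% of ranked summits were. Every run of 36 bases in every peak of the window occurred once in the reference genome. How many copies of these sequences the tagged strain holds was not established here.

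The window held more ranked summits than those of most genes. With 10 summits it exceeded 97.2% of protein-coding genes, whose median was 3 in windows cut by the same rule. The window of unc-3 is longer than most, and per kb it had 0.587 summits, against a median of 0.256 and above 89.5% of genes. Among the 704 genes with a window within 10% of its length, the median was 6 summits and 86.1% of genes had fewer. At least 1 ranked summit was found in the windows of 84.5% of protein-coding genes. At least 1 main summit was found in the windows of 6.66% of all protein-coding genes and 11.9% of those 704. Neighbouring genes share summits in these windows, and adjacent summits can share 1 replicate peak.

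**Figure D3:**
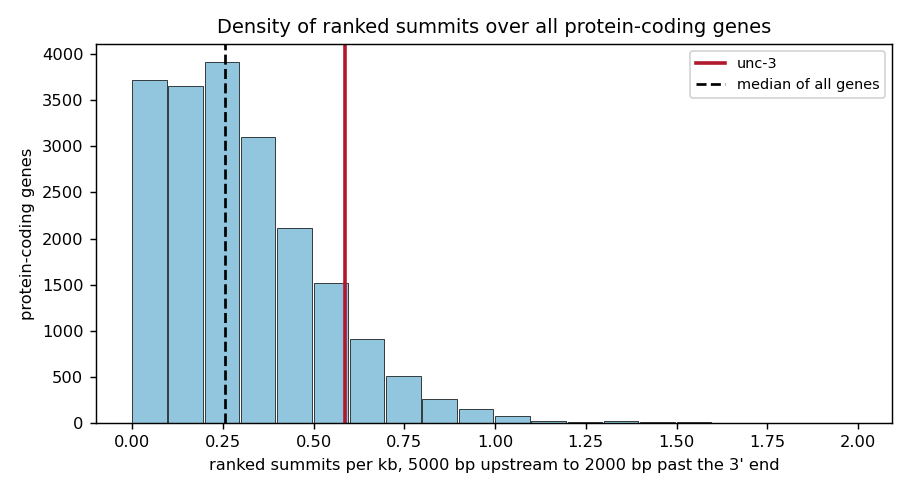
Number of protein-coding genes (vertical axis) by ranked summits per kb in windows cut as for unc-3 (horizontal axis, bins of 0.1). The red line marks unc-3 at 0.587 per kb and the dashed line the median of all genes at 0.256.

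The COE sites of the locus were then located in the sequence, whether or not a peak was near. The exact COE pattern is T, then CCC, then 2 free letters, then GGG, then A. The relaxed pattern also allows C in place of the first letter and G in place of the last. Both patterns equal their own reverse complement, so 1 strand holds every match. The window contained 0 exact sites and 1 relaxed site, at chrX:14776599-14776608, in intron 1 and 47 bp before exon 2. Counted from 1 at the 5' end of the site, it differs from the exact pattern by A10G. Its centre was 79.5 bp from the main summit, 77.5 bp from that of replicate 1 and 107.5 bp from that of replicate 2. The genome has 11.3 relaxed sites per Mb, which gives 0.192 for a window of this length, and 8.28% of all protein-coding genes had at least 1 in theirs.

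A wider search allowed any 1 of the 8 fixed letters to differ, a choice made after the values were seen. It added 3 sites to the relaxed one, where 2.05 in all would be found in a window of this length at the density of the whole genome. They are shown with 10 bases on each side and the site in capitals, to set the site under the peak beside those with no peak, in order along the gene.
Intron 1, relaxed site at 14776599: tgaggccggtTCCCGAGGGGccgctggctg
Intron 2, G8T at 14776743: ttatttttgaTCCCTGGTGAaatattcatt
Exon 8, G8T at 14781532: aaggcactttTCCCAAGTGAggggtggatt
Exon 11, G7T at 14782157: gatccactctTCCCTATGGAgctggaccac
The relaxed site had a ranked summit within 100 bp, as had 22.4% of the 1132 relaxed sites of the nuclear genome. A main summit lay within 100 bp of 2.03% of these sites. The site in intron 2 was 223.5 bp from the summit of the intron 1 peak. The sites in coding exons 8 and 11 were 1047.5 and 1672.5 bp from the nearest ranked summit, that of intron 7.

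Of the 10 ranked summits 1 had a relaxed COE site within 100 bp, where 0.729% of all ranked summits and 3.33% of main summits had one. None had an exact site, which 0.376% of ranked and 2.38% of main summits had. Among all protein-coding genes, 0.140% had a main summit with a relaxed site within 100 bp of it in their window. Of the 1374 genes whose window holds exactly 1 relaxed site, as that of unc-3 does, 1.38% had such a summit.

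The unc-3 peak was 1 of 21 main peaks with a relaxed site and held rank 10 among them by signal, where their median signal was 80.6. Its site was farther from the summit than in 19 of these peaks, whose median over all 21 was 34.5 bp. Chromosome X had 3 of the 21, the others being a peak of signal 60.4 in syd-9, whose site lay 93.5 bp from the summit, and an intergenic peak of signal 68.1 with ergi-2 nearest. The site nearest to the summit was exact in 14 of the 21 peaks, and 15 had an exact site within 100 bp, so unc-3 is among the minority without one. Sites of 5 such peaks, picked with their values in view, are set side by side, with letters that match the exact pattern in capitals and the free middle letters in lower case.
unc-3 (X:14776599-14776608): TCCCgaGGGg
syd-9 (X:7224660-7224669): cCCCtaGGGA
Near ergi-2 (X:15011731-15011740): TCCCatGGGA
cha-1 and unc-17 (IV:3621926-3621935): TCCCagGGGA
alg-2 (II:873634-873643): cCCCgaGGGA
They are read on the plus strand. The sites at unc-3, syd-9 and alg-2 each depart from the exact pattern at 1 outer letter, and since the pattern is its own reverse complement, a change at the first letter on one strand is a change at the last on the other. The site near ergi-2 and the one of cha-1 and unc-17, genes that overlap and serve to make acetylcholine and load it into vesicles, are exact.

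**Figure D4:**
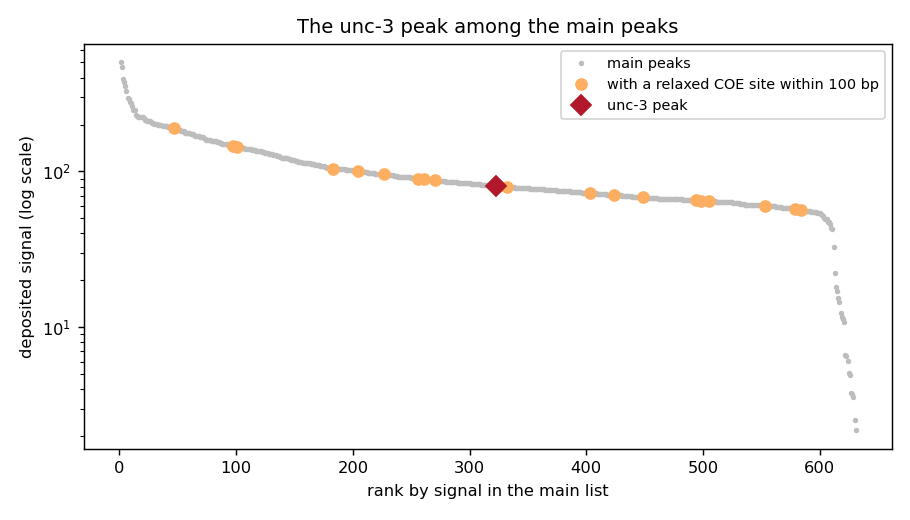
Signal of the 631 main peaks (vertical axis, log scale) against their rank by signal (horizontal axis). Orange circles mark main peaks with a relaxed COE site within 100 bp and the red diamond the unc-3 peak at rank 323 with signal 80.9. The 21 marked peaks spread from rank 47 to rank 584.

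Other sequence patterns were looked for within 100 bp of the 10 ranked summits, on both strands. They were the GATA factor sequence TGATAA, the homeodomain sequence TAATTA, the E-box CAGCTG named above and the repeat GAGAGA. The intron 1 peak at exon 2 held none of the 4. Among main summits 7.61% had the GATA sequence, 4.12% the homeodomain sequence, 5.07% the E-box and 29.2% the repeat. The second peak of intron 1 held TGATAA 27.5 bp and GAGAGA 4.5 bp from its summit. Both peaks past the 3' end also held TGATAA, and 14.1% of all ranked summits had it. CAGCTG was near the first summit of intron 5 and that of intron 7 (4.65% of ranked summits), GAGAGA was at 1 summit (14.7%), and TAATTA was at 0 (6.88%). The sequence within 100 bp of the main summit was 58.2% G or C, in a window of 35.8%, where main summits had a median of 45.8% and ranked summits 39.3%. It was richer in G and C than at 96.8% of main summits. The other 9 ranked summits of the window had between 31.8% and 50.2%. The part of base composition in the peak was not tested.

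On chromosome X the unc-3 peak was number 77 of 134 main peaks by signal. Of the 56 X peaks farther than 500 bp from tRNA, snoRNA and snRNA genes it was number 14.

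Genes of factors that act in motor neurons or select other neuron types, and genes known as UNC-3 targets in cholinergic motor neurons, were counted in windows cut in the same way. Both lists were chosen with earlier results of these data known. Of 20 factor genes, 2 had a main summit (beside 6.66% of all protein-coding genes): unc-3 itself, and the Hox gene ceh-13, with a signal of 61.0 (32.6 in replicate 1 and 27.1 in replicate 2) at a summit upstream of its 5' end (-787 bp) and without a relaxed COE site. In the window of unc-3 there were 10 ranked summits, where the list, unc-3 included, had a median of 3.5 and a range of 0 to 10. The upper end of the range is unc-3 itself, and ceh-13 followed with 9, but windows differ in length. Per kb, ceh-13 (0.959) and unc-37 (0.598) had more than unc-3 (0.587). At least 1 relaxed COE site was in the windows of 4 of the 20 factor genes, beside 8.28% of all protein-coding genes, and of these unc-4, vab-7 and bnc-1, which also act in motor neurons, had no main summit. The Hox genes lin-39, mab-5 and egl-5 had 7, 3 and 3 ranked summits and no main one. Of the 20 target genes, 2 had a main summit, cha-1 and unc-17, which share it (signal 89.4, with 47.3 in replicate 1 and 40.6 in replicate 2). At least 1 relaxed site was in the windows of 9 of the 20 target genes, beside 8.28% of all protein-coding genes. The unlike length of windows was not allowed for in this count or in that of the factor genes. Among the 9 are cha-1 and unc-17, whose windows overlap. The other 7 had no main summit (ace-2, del-1, glr-4, nlg-1, dbl-1, slo-2 and twk-13). The choline transporter gene cho-1 and the acetylcholinesterase gene ace-2 had 4 and 8 ranked summits and no main one. The list had a median of 4.0 ranked summits and a range of 0 to 8, with a median of 3 over all protein-coding genes.

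The pattern at unc-3, exactly 1 main summit in the window and this in an intron of the gene, was found at 161 protein-coding genes, of which 158 had an overlapping ranked peak in both replicates. Likeness to unc-3 was measured among these 158 as the sum of the absolute log10 differences in signal over 3 values, those of the main list, replicate 1 and replicate 2. The nearest was alg-2, the gene of an Argonaute protein of the microRNA pathway, with signals of 80.6, 48.6 and 34.0 and a sum of 0.0457. It was followed by stim-1, the gene of a calcium sensor of the endoplasmic reticulum (73.4, 44.5 and 34.2, sum 0.0474), F22B7.9 (sum 0.0526), the anion transporter gene abts-1 (sum 0.0578) and sre-13, of a chemoreceptor family (sum 0.0657). Of these 5, alg-2 had a relaxed COE site within 100 bp of its summit, and the peaks of F22B7.9 and sre-13 were closer than 500 bp to a gene of these short RNAs. In all, 11 of the 158 genes had a relaxed COE site within 100 bp of the summit. The share among all main summits was 3.33%, which counts peaks rather than genes and is not limited to introns. These were unc-3, egl-27, tns-1, let-526, vab-1, cha-1, unc-17, C08G9.1, alg-2, plr-1 and lin-59. The genes cha-1 and unc-17 share 1 peak, so the 11 genes stand for fewer peaks.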

How the data were processed

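The deposited files are peak lists on ce11, per the labels, 4 for both replicates together and 2 for each replicate. For aligner, peak caller and settings: not given in the sources used here. Each peak's signal value is as the authors deposited it, its scale is not given, and the score is the authors' scaled IDR (830 at an IDR of 0.01). The −log10 IDR was deposited in the ranked lists. The lists hold no read counts, so depth is unknown. Of the 2 ranked lists for both replicates, the one built on the replicates' own peaks was used (its contributing peaks equal peaks of the replicates' lists for 48.9% of its entries, and for 0% in the other). The 4 columns of contributing signals in these lists were not used.

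Ranks and percentiles were taken by signal within each list, with Python 3.11.15, and plots drawn with matplotlib 3.10.9. Genes came from Ensembl release 115 and sequence from RefSeq WBcel235. Summits were matched between lists when peaks overlapped by at least 1 bp. Sites counted when their centre was within 100 bp of a summit. Counting was tested on simulated data with planted sites. Named genes are unc-3, genes in or next to its window, list members with a main summit and the 5 most like it. The factor and target genes given without a main summit, and the peaks set beside unc-3 by their site, were picked with their values in view. The gene, the lists and these rules were chosen with earlier results of these data known. Alternatives were other lists, single replicates, other windows, distances and overlaps, and a limit on signal. No test between groups was possible.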

Additional observations from a re-analysis of the deposited data

How the results depend on the processing

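Of 35 alternatives over 7 results, 25 left the value within 1.5 times, or within the spread between replicates for the percentile, and 10 did not. Among the 10, the number of main summits at unc-3 was 0 with the thresholded list of either replicate alone, against 1 with both, and 0 when only main peaks at or above the list's median signal counted. Ranked summits of the window numbered 6, against 10, at or above the median signal of the ranked list. The percentile of the peak was 48.8 among main peaks only and 98.1 in replicate 2 alone, against 98.5. With 50 bp between summit and site, 0 ranked summits had a relaxed COE site and 0 relaxed sites had a ranked summit, against 1 each, since the site is 79.5 bp away. Both counts were also 0 in replicate 2 alone, whose summit lies 107.5 bp from the site, past the limit of 100 bp. Among the 25 were the 8 to 12 ranked summits of single replicates, and in replicate 1 alone the percentile of 98.7 and the count of 1 for summits and for sites. A peak in both replicates was found at 5 ranked summits, against 7, when 50% of each peak had to overlap or summits had to lie within 100 bp. Without read counts or a control library, the depth behind each value is unknown. No paired analysis was possible because there is 1 group.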
